A study of Mus musculus with 24 samples.

Results

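The genes described here are 10 mRNAs of the liver stress response that runs through the transcription factor ATF4, taken by their symbols from the 15160 genes of the deposited count table: the regulators Atf4, Atf5, Atf3, Ddit3 and Nupr1, and the effectors Trib3, Asns, Chac1, Sesn2 and Ddit4. All 10 were in the table, and all 10 were among the 13336 genes that passed the filter on low counts and were tested. Their mRNA was measured by 3′ tag sequencing (QuantSeq, in which a read comes from near the end of a transcript) in the livers of 24 male mice, 5 months old by the labels, that carried loxP-flanked Nfe2l2 alleles. Nfe2l2 encodes NRF2, a transcription factor of the oxidative stress response. WT mice were floxed NRF2fl/fl littermates without Cre, and NRF2 KO mice, labelled NRF2fl/(alb), carried in addition a Cre recombinase driven by the albumin promoter, which acts in hepatocytes, so that other liver cells kept the gene. From 8 weeks of age the mice were fed for 8 weeks a control diet (Con, 0.86% methionine) or a methionine-restricted diet (MR, 0.17% methionine), neither of them containing cysteine, and food was withdrawn 4 h before the tissue was taken. The paper describes calorimetry and a return to home cages between an 8-week diet period and harvest, so the time on diet at harvest may have been longer. The study left out 1 WT Con and 1 WT MR library as outliers, and its text does not name them. WT_CON_7604 and WT_MR_7612 were set aside here together with the choice of the 10 genes, and whether they are the libraries the study left out was not checked. The values given first are without them, which leaves 5 Con and 5 MR mice of the WT genotype and 6 of NRF2 KO on each diet.

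ATF4 is the main effector of the integrated stress response. In that response kinases that sense amino acid shortage, unfolded protein in the endoplasmic reticulum (ER), double-stranded RNA or heme deficiency phosphorylate the translation factor eIF2α, which lowers general protein synthesis but raises the translation of Atf4 mRNA. ATF4 pairs with other basic leucine zipper (bZIP) proteins, C/EBP family members and NRF2 among them, and binds composite C/EBP-ATF sites at genes of amino acid synthesis and transport, redox balance and cell death. Because ATF4 is controlled in large part at translation, its mRNA level is not a measure of its protein, and no protein was measured in the files used here.

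The promoters of the 10 genes were searched for 2 sequences to which ATF4 and its partners are known to bind, in the 250 bases before each transcription start in RefSeq (build GRCm38.p6). These were the core of the composite C/EBP-ATF site, TGATGNAA, and the cyclic AMP response element, TGACGTCA, each on both strands. All 10 genes had a promoter in the RefSeq table, and Atf5 had 2. The composite site was found in 4 of the 10 genes, against 3.91% of 27025 genes and 3.45% of 32851 promoters of this length. The 10 genes were chosen as members of the ATF4 response, so this count is a description and no test of enrichment. Of these 4 genes 2, Asns and Chac1, were called higher on MR in both genotypes, the call of Chac1 in WT being close to the threshold. The other 2, Atf3 and Nupr1, were called in neither. Whether the sites act in these livers was not tested. The 30 bases around each match are shown on the strand of the gene with the match in capitals.
Asns: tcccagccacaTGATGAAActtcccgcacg
Chac1: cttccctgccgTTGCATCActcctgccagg
Atf3: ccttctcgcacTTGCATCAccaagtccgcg
Nupr1: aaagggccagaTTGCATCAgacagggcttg
The Asns window lies at chr6:7693214-7693243 on the minus strand and its match runs from 23 to 16 bases before the start in the direction of the gene. The Chac1 window lies at chr2:119351038-119351067 on the plus strand, with the match in the opposite direction from 193 to 186 bases before the start. Those of Atf3 (chr1:191183425-191183454) and Nupr1 (chr7:126625562-126625591), both on the minus strand, also hold the match in the opposite direction, in each case from 110 to 103 bases before the start. The windows of Asns, Atf3 and Nupr1 fall inside these genes as GENCODE draws them, from starts further upstream. The cyclic AMP response element was in none of the windows of the 10 genes and in 1.77% of all genes. Trib3, which was also called higher on MR in both genotypes, had neither sequence in this window, which says only that these letters are not in these 250 bases.

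The 22 libraries held between 6197291 and 22068338 counts, with a median of 15019791, and levels are given as CPM, that is counts scaled by TMM to the same library size in every mouse. Reads of the deleted gene, Nfe2l2, did not fall in NRF2 KO mice but were called higher. The log2 fold change was 0.83 on Con (edgeR adjusted p = 0.045) and 1.18 on MR (edgeR adjusted p = 0.0035). The 6 NRF2 KO Con mice lay between 228 and 339 CPM and the 6 NRF2 KO MR mice between 202 and 249 CPM, while 4 of the 5 WT Con mice lay between 106 and 125 CPM and the 5 WT MR mice between 94.0 and 107 CPM. The excised part is in exon 5, the exon that also holds the 3′ end of the gene, and a 3′ tag count cannot show whether a transcript carries the excised part. By qPCR with primers for the excised part, the paper reports a large decrease of Nfe2l2 mRNA in NRF2 KO livers. The library labelled WT_CON_7607 had 324 CPM, a level inside the NRF2 KO Con range. Without it the Nfe2l2 log2 fold change on Con was 1.27 (edgeR adjusted p = 6.4e-09). Main values of the 10 genes that rest on WT Con mice are therefore also given without it, as are calls of other named genes that were lost. Ranges, interaction estimates and counts of groups without overlap are given with it only. Defining hepatocyte markers were abundant, with summed levels of 9 of 10 listed genes between 94040 and 149900 CPM in the 22 mice.

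The diet comparison asks which of the 10 mRNAs differed between Con and MR, and whether they did so in livers with and without NRF2. In WT mice 4 of the 10 rose on MR (Asns, Chac1, Trib3 and Atf5), where 6.91% of all tested genes were called higher and 6.91% lower. In NRF2 KO mice 4 rose as well (Asns, Chac1, Trib3 and Atf4), against 6.23% of all tested genes called higher and 6.34% lower. Without the library labelled WT_CON_7607 the WT count was 2 (Asns and Trib3) of the 10, where 5.68% of all tested genes were called higher and 5.39% lower. None of the 10 fell in either genotype by this test. The 10 genes were chosen with earlier results of these data known, so their counts are a description. The median log2 fold change of the 10 was 0.44 in WT, with a range from -1.22 to 4.09, and 0.31 in NRF2 KO, with a range from -0.14 to 3.86, while the median of all tested genes was -0.006 and -0.004. Levels in bulk liver cannot tell more mRNA per cell from more cells of the type that holds it.

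**Figure D1:**
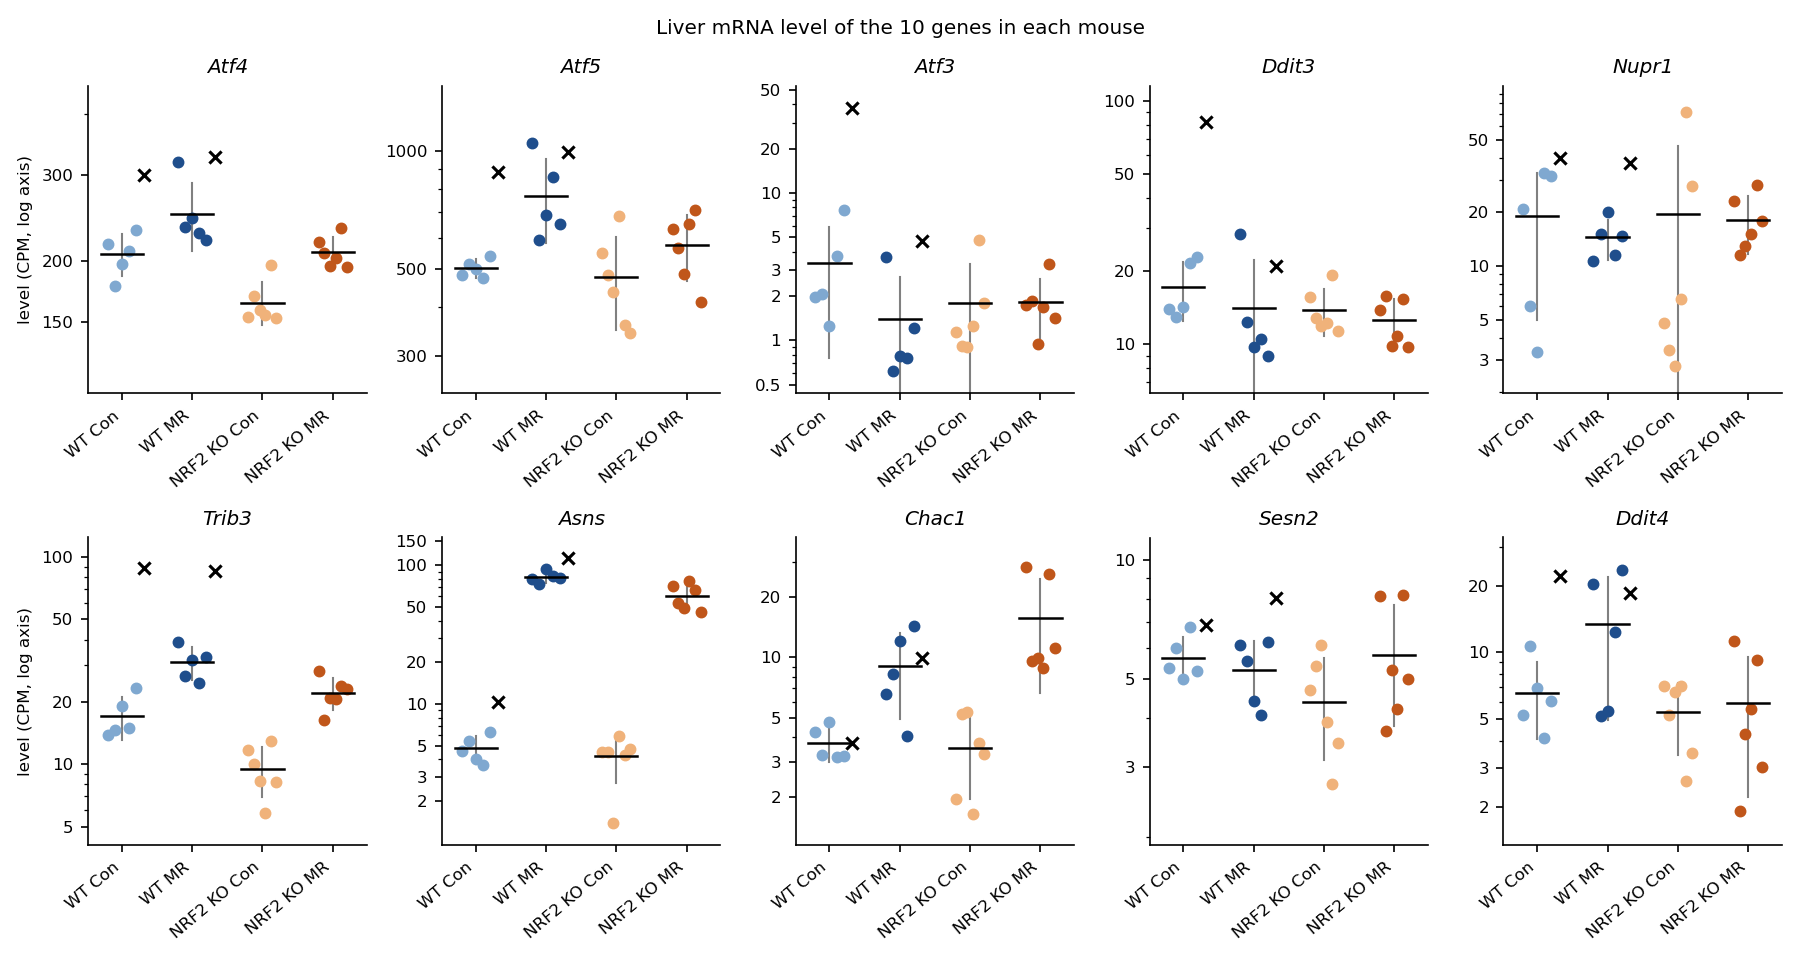
Level of each of the 10 mRNAs in each mouse, in CPM on a log axis, in the livers of both genotypes on both diets. Dots are the 22 mice compared, horizontal lines the group means, vertical lines 1 SD (drawn to the axis where the mean minus the SD lies below it) and crosses the mice WT_CON_7604 and WT_MR_7612; the Asns dots of the MR groups lie above every Con dot, and the cross of WT_CON_7604 lies above the WT Con dots for 9 of the 10 genes.

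Asns, the enzyme that makes asparagine from aspartate and glutamine and a standard readout of amino acid shortage, is a minus-strand gene of chromosome 6 (7675169 to 7693254, GRCm38). The 5 WT Con livers held 4.61, 5.40, 4.02, 3.61 and 6.30 CPM, and the 5 WT MR livers 80.0, 73.1, 93.6, 83.3 and 81.6 CPM. The lowest, median and highest NRF2 KO mice had 1.38, 4.50 and 5.89 CPM on Con and 46.3, 60.2 and 77.0 CPM on MR. No MR mouse of either genotype came near a Con mouse. The rise was 17.0-fold in WT (log2 fold change 4.09 ± 0.236, SE, quasi-likelihood F-test of edgeR, Benjamini-Hochberg adjusted p = 9.1e-10) and 14.5-fold in NRF2 KO (3.86 ± 0.218, SE, adjusted p = 5.9e-10, same test). Asns kept this call in all 31 other fits for each genotype, with log2 fold changes of 3.84 to 4.23 in WT (4.01 without the library labelled WT_CON_7607) and 3.66 to 4.02 in NRF2 KO.

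Chac1 encodes a γ-glutamyl cyclotransferase that breaks down glutathione, the main thiol antioxidant of the liver, and lies on chromosome 2 from 119351229 to 119354381 (plus strand, GRCm38). It was at 4.24, 3.27, 4.75, 3.18 and 3.24 CPM in the WT Con livers and at 6.57, 8.26, 12.02, 4.07 and 14.4 CPM in the WT MR livers, so that 1 MR mouse lay inside the Con range. In NRF2 KO livers the lowest, median and highest values were 1.65, 3.50 and 5.36 CPM on Con and 8.86, 10.5 and 28.4 CPM on MR, with no overlap. The mice KO_MR_7625 and KO_MR_7631 had 28.4 and 26.1 CPM, and the other 4 lay between 8.86 and 11.1 CPM. The log2 fold change was 1.29 ± 0.414 (SE, edgeR adjusted p = 0.043) in WT and 2.16 ± 0.372 (SE, edgeR adjusted p = 0.00095) in NRF2 KO. The WT call was close to the threshold: without the library labelled WT_CON_7607 its adjusted p was 0.082 (edgeR) with a log2 fold change of 1.25, and 9 of the 22 fits without a single mouse lost it (adjusted p up to 0.11).

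Trib3, a pseudokinase that is induced by ATF4 and C/EBP homologous protein and binds both ATF4 and the kinase AKT, is a minus-strand gene of chromosome 2 (152337422 to 152344032, GRCm38). The WT Con values were 13.8, 14.7, 19.0, 15.0 and 23.4 CPM and the WT MR values 39.0, 26.7, 31.8, 24.7 and 32.8 CPM. NRF2 KO mice ran from 5.82 through a median of 9.20 to 13.0 CPM on Con and from 16.3 through 21.98 to 28.1 CPM on MR. Every MR mouse of the 22 was above every Con mouse of its own genotype. Trib3 rose 1.80-fold in WT (log2 fold change 0.85 ± 0.182, SE, edgeR adjusted p = 0.0035) and 2.34-fold in NRF2 KO (1.23 ± 0.172, SE, edgeR adjusted p = 0.00011). The WT value was 0.80 without the library labelled WT_CON_7607 (edgeR adjusted p = 0.011). The WT call depended on the mice set aside. WT_CON_7604 held 88.8 CPM and WT_MR_7612 held 85.4 CPM, above all 22 mice compared. With WT_CON_7604 put back the WT log2 fold change was 0.09 (edgeR adjusted p = 0.91), with WT_MR_7612 put back it was 1.22 (edgeR adjusted p = 0.0046), and with all 24 mice it was 0.47 (edgeR adjusted p = 0.48). The value in NRF2 KO stayed at 1.23 with all 24 mice, at an adjusted p of 0.074 (edgeR), since all groups share 1 estimate of the spread.

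Sesn2 encodes sestrin 2, a leucine-binding inhibitor of the growth kinase complex mTORC1, and Ddit4 encodes REDD1, another inhibitor of mTORC1. Sesn2 was at 5.34, 6.01, 5.01, 6.79 and 5.25 CPM in WT Con and at 6.11, 5.56, 4.41, 4.07 and 6.22 CPM in WT MR, and the groups overlapped. In NRF2 KO its range was 2.72 to 6.11 CPM on Con and 3.71 to 8.16 CPM on MR. The log2 fold change was -0.08 (95% interval -0.53 to 0.36) in WT and 0.38 (95% interval -0.02 to 0.79) in NRF2 KO, and neither passed the test (edgeR adjusted p = 0.85 and 0.2). The WT value was -0.01 without the library labelled WT_CON_7607. Ddit4 was at 5.19, 10.7, 6.89, 4.12 and 6.05 CPM in WT Con and at 20.3, 5.14, 5.45, 12.4 and 23.6 CPM in WT MR. Of the 5 WT MR mice 3 exceeded every WT Con mouse and the other two lay inside the Con range, and the log2 fold change of 1.02 (95% interval 0.05 to 1.997) did not pass the test (edgeR adjusted p = 0.16), nor did 0.90 without the library labelled WT_CON_7607 (edgeR adjusted p = 0.27). In NRF2 KO livers Ddit4 ran from 2.63 to 7.08 CPM on Con and from 1.93 to 11.3 CPM on MR, with a log2 fold change of 0.14 (edgeR adjusted p = 0.88).

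Among the regulators, Atf4 itself (chromosome 15 from 80255184 to 80257541, plus strand, GRCm38) had a coefficient of variation between 7.23% and 15.9% in the 4 groups. The WT Con livers held 216, 177, 197, 209.7 and 232 CPM and the WT MR livers 318, 235, 244, 228 and 220.4 CPM. The NRF2 KO livers lay at 153 to 196 CPM on Con, with a median of 157 CPM, and at 195 to 233 CPM on MR, with a median of 205 CPM. In both genotypes the ranges of Con and MR overlapped. The log2 fold change was 0.27 ± 0.098 (SE) in WT, which missed the threshold (edgeR adjusted p = 0.064), and 0.34 ± 0.089 (SE) in NRF2 KO, which passed it (edgeR adjusted p = 0.013). The WT value was past the threshold by DESeq2's test (adjusted p = 0.041), with WT_MR_7612 put back (0.34, edgeR adjusted p = 0.028), without WT_CON_7608 (0.32, edgeR adjusted p = 0.044) and without KO_CON_7622 (0.27, edgeR adjusted p = 0.047). It was lower without WT_MR_7609, the highest WT MR mouse (0.17, edgeR adjusted p = 0.23), and with WT_CON_7604 put back (0.17, edgeR adjusted p = 0.32), and it was 0.28 without the library labelled WT_CON_7607 (edgeR adjusted p = 0.084).

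Atf5, a bZIP factor that like ATF4 is controlled by upstream reading frames in its mRNA and that acts on the mitochondrial unfolded protein response, was at 483, 516, 499, 473 and 541 CPM in WT Con and at 1048, 592, 686, 859 and 651 CPM in WT MR, without overlap. In NRF2 KO it lay between 343 and 683 CPM on Con and between 411 and 708 CPM on MR, with wide overlap. It rose in WT by 0.61 ± 0.175 (SE, edgeR adjusted p = 0.023) on the log2 scale, and the NRF2 KO value of 0.28 ± 0.16 (SE) did not pass the test (edgeR adjusted p = 0.28). The WT call was lost without the library labelled WT_CON_7607 (0.59, edgeR adjusted p = 0.053), without WT_MR_7609 (0.47, edgeR adjusted p = 0.08), without WT_MR_7615 (0.57, edgeR adjusted p = 0.057) with all 24 mice (0.51, edgeR adjusted p = 0.069) and with WT_CON_7604 put back (0.44, edgeR adjusted p = 0.13). The gene overlaps Nup62 and Il4i1 on the opposite strand, and whether the counting used strand is not given in the sources used here, so reads of these genes could be counted together.

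The remaining 3 regulators, Atf3, Ddit3 and Nupr1, are induced by acute or prolonged stress, and none of them passed the test in either genotype. Atf3, a bZIP repressor induced by many acute stresses, was at 1.97, 2.05, 1.25, 3.76 and 7.65 CPM in WT Con and at 3.65, 0.623, 0.778, 0.753 and 1.21 CPM in WT MR. The mouse WT_MR_7609 stood well above the other 4. The log2 fold change was -1.22 ± 0.574 (SE, edgeR adjusted p = 0.17), and without WT_MR_7609 it was -2.04 and past the threshold (edgeR adjusted p = 0.035). With WT_CON_7604 put back it was -2.64 (edgeR adjusted p = 0.038), without WT_CON_7608, the highest WT Con mouse, it was -0.61 (edgeR adjusted p = 0.53), and without the library labelled WT_CON_7607 it was -1.19 (edgeR adjusted p = 0.23). Ddit3, which encodes C/EBP homologous protein (CHOP), a mediator of cell death under prolonged ER stress, was at 14.0, 12.9, 14.3, 21.7 and 22.9 CPM in WT Con and at 28.6, 12.4, 9.77, 10.6 and 8.98 CPM in WT MR, the same mouse again being the highest. Its log2 fold change was -0.27 ± 0.272 (SE, edgeR adjusted p = 0.56), -0.72 without WT_MR_7609 (edgeR adjusted p = 0.025), -0.13 without WT_CON_7608 (edgeR adjusted p = 0.83) and -0.17 without the library labelled WT_CON_7607 (edgeR adjusted p = 0.77). Nupr1, a small stress-induced chromatin protein, was at 20.8, 6.01, 3.34, 32.7 and 31.8 CPM in WT Con and at 10.7, 15.2, 20.1, 11.6 and 14.8 CPM in WT MR, inside the Con range (log2 fold change -0.39, 95% interval -2.005 to 1.23, and -0.11 without the library labelled WT_CON_7607).

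In NRF2 KO livers the same 3 regulators did not separate by diet. Atf3 ran from 0.902 through a median of 1.197 to 4.81 CPM on Con and from 0.944 through 1.72 to 3.31 CPM on MR (log2 fold change 0.12, edgeR adjusted p = 0.92). Ddit3 ran from 11.3 to 19.3 CPM and from 9.77 to 15.8 CPM (-0.14, edgeR adjusted p = 0.77). Nupr1 ran from 2.81 through a median of 5.71 to 71.3 CPM on Con and from 11.5 through 16.4 to 28.3 CPM on MR (-0.05, edgeR adjusted p = 0.98). Of the 6 NRF2 KO Con mice 4 lay below every NRF2 KO MR mouse for Nupr1, while KO_CON_7622 held 71.3 CPM and KO_CON_7623 held 27.8 CPM. The liver of KO_CON_7622 also had 8.54 CPM summed over 7 pancreatic acinar markers, where the other NRF2 KO Con livers had at most 0.246 CPM. KO_MR_7632 had 59.02 CPM of the same markers, with the other NRF2 KO MR livers at most at 0.615 CPM, and its Nupr1 level of 17.8 CPM was inside the range of that group. Without KO_CON_7622 the Nupr1 value was 1.05 (edgeR adjusted p = 0.26), and without KO_MR_7632 it was -0.04 (edgeR adjusted p = 0.98). The part of the acinar markers in these values was not tested further. Atf3 and Ddit3 overlap genes on the opposite strand (Gm24748 for Atf3, Mars and Gm4189 for Ddit3), and 1.64% of the 50-base words near the end of the Nupr1 transcripts also occur in other genes, so these counts carry that uncertainty.

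**Figure D2:**
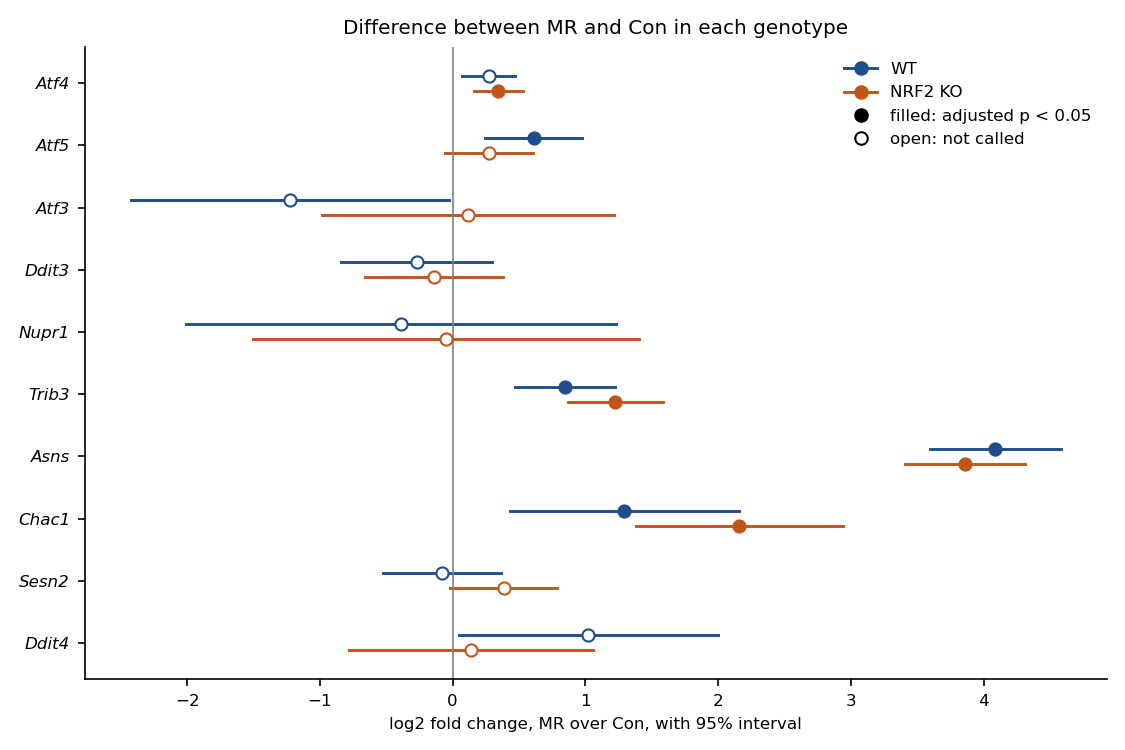
Log2 fold change of MR over Con for each of the 10 mRNAs in WT (blue) and NRF2 KO (orange), with 95% intervals from the fit over 22 mice; filled points have an adjusted p under 0.05 over all 13336 genes. Asns lies near 4 in both genotypes, Trib3 and Chac1 are filled in both, Atf5 in WT and Atf4 in NRF2 KO.

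Where the groups did not overlap, 3 of the 10 genes separated Con from MR completely in WT (Asns, Trib3 and Atf5), against 9.32% of all tested genes in either direction. In NRF2 KO these were Asns, Trib3 and Chac1, again 3 of the 10, against 5.45% of all tested genes.

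Marker genes of liver cells also differed between the diets, where 6.91% of all tested genes were called lower on MR in WT and 6.34% in NRF2 KO. Of 5 bile duct cell markers 4 fell on MR in WT, their sum ranging from 49.0 to 72.7 CPM on Con and from 20.9 to 28.3 CPM on MR, and 1 fell in NRF2 KO, with sums of 31.7 to 53.1 CPM and 20.6 to 29.0 CPM. Of 7 stellate cell and fibroblast markers 4 fell in WT (388.8 to 652.8 CPM on Con and 341.6 to 427.5 CPM on MR) and 3 in NRF2 KO (449.6 to 525.3 CPM and 374.8 to 492.1 CPM). Of 8 Kupffer cell and macrophage markers 4 fell in WT (331 to 459 CPM and 270.0 to 304 CPM) and 1 in NRF2 KO (292 to 444 CPM and 251.5 to 338 CPM). The WT counts were 4, 3 and 3 without the library labelled WT_CON_7607. Of 9 hepatocyte markers 1 fell on MR in WT and 2 in NRF2 KO, and none rose. Their sums ran from 100000 to 133900 CPM on Con and from 94040 to 111900 CPM on MR in WT. In NRF2 KO they ran from 130800 to 149900 CPM on Con and from 116500 to 138600 CPM on MR. All of the markers counted here were above 0 in at least 1 mouse, and their part in the values of the 10 genes was not tested.

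The interaction, that is the effect of MR in NRF2 KO minus the effect of MR in WT, was called for 0 of the 10 genes (edgeR), where 0.045% of all tested genes were called. None of the 10 had an unadjusted p under 0.05 in this test, where 1008 of the 13336 tested genes did, and DESeq2's test and the fit without the library labelled WT_CON_7607 also called 0 of them. The estimates were -0.23 (95% interval -0.87 to 0.41) for Asns, 0.87 (-0.30 to 2.03) for Chac1, 0.38 (-0.14 to 0.89) for Trib3, 0.07 (-0.20 to 0.35) for Atf4 and -0.34 (-0.82 to 0.16) for Atf5 on the log2 scale. The intervals of Atf4 and Trib3 hold differences between the genotypes of up to 0.35 and 0.89, and those of Atf3 (-0.28 to 2.97), Nupr1 (-1.84 to 2.51) and Ddit4 (-2.22 to 0.46) are too wide to show that the diet acted alike in both. That Atf5 was called in WT alone and Atf4 in NRF2 KO alone is therefore no difference between the genotypes by this test.

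The genotype comparison asks whether the 10 mRNAs differed between NRF2 KO and WT livers on the same diet. On Con all 10 estimates were below 0, with a median log2 fold change of -0.29 beside -0.004 for all tested genes, and 1 of them passed the test, with Nupr1 at -0.01 and 8 genes with intervals that include 0. That count depends on values near 0: without the library labelled WT_CON_7607 Nupr1 was at 0.26, so that 9 of the 10 were below 0 (median -0.28), and over 31 other fits Nupr1 turned in 8, Chac1 in 3 and Atf5 in 1. The gene called was Trib3, which fell by 0.86 ± 0.18 (SE, edgeR adjusted p = 0.0099) on the log2 scale, where 1.27% of all tested genes were called lower. Its 6 NRF2 KO Con values, from 5.82 to 13.0 CPM, lay below all 5 WT Con values, which began at 13.8 CPM, and 1.83% of all tested genes had no overlap between these groups. Without the library labelled WT_CON_7607 the value was -0.91 (edgeR adjusted p = 0.011). With WT_CON_7604 put back it was -1.62 (edgeR adjusted p = 0.025), with WT_MR_7612 put back it was -0.86 and no longer called (edgeR adjusted p = 0.14), and in a fit on these 2 groups alone it was not called either (edgeR adjusted p = 0.057). Atf4 had a log2 fold change of -0.33 ± 0.093 (SE) and missed the threshold (edgeR adjusted p = 0.064, and 0.092 without the library labelled WT_CON_7607), while DESeq2's test called it (adjusted p = 0.02).

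On MR none of the 10 genes was called between the genotypes by edgeR's or DESeq2's test, where edgeR called 1.93% of all tested genes in both directions. Of the 10 genes 6 had an unadjusted p under 0.05, where 1851 of the 13336 tested genes did, and none had groups without overlap, against 4.60% of all tested genes. Among them 5 had estimates below 0: Atf4 (-0.26, 95% interval -0.45 to -0.07), Trib3 (-0.49, -0.84 to -0.13), Atf5 (-0.41, -0.76 to -0.07), Asns (-0.44, -0.83 to -0.05) and Ddit4 (-1.15, -2.07 to -0.22). The other was Chac1, with an estimate above 0 (0.78, 95% interval 0.02 to 1.54). These intervals are not adjusted for the number of genes. Without WT_MR_7609 the estimates were -0.15 for Atf4, -0.39 for Trib3, -0.27 for Atf5, -0.45 for Asns, -0.93 for Ddit4 and 0.67 for Chac1.

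Taken over both diets, as the mean of the 2 genotype effects, Trib3 and Atf4 fell in NRF2 KO, that is 2 of the 10, where 3.24% of all tested genes were called lower. The log2 fold change was -0.68 ± 0.124 (SE, edgeR adjusted p = 0.0014) for Trib3, or a level 0.626 times that of WT, and -0.29 ± 0.066 (SE, edgeR adjusted p = 0.0074) for Atf4, or 0.816 times that of WT. Both calls held in each of the 30 other fits, with log2 fold changes from -1.24 to -0.61 for Trib3 and from -0.38 to -0.24 for Atf4. Without the library labelled WT_CON_7607 they were -0.70 (edgeR adjusted p = 0.0014) and -0.29 (edgeR adjusted p = 0.0096). Chac1 and Nupr1 had estimates above 0 (0.35 and 0.16), and the other 6 genes had estimates from -0.71 to -0.11, none of them called. These contrasts share their mice with the diet comparisons. Of 9 hepatocyte markers 3 were called higher in NRF2 KO over both diets, where 2.21% of all tested genes were. On MR their sums were 116500 to 138600 CPM in NRF2 KO and 94040 to 111900 CPM in WT. The part of cell composition in the genotype values was not tested.

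**Figure D3:**
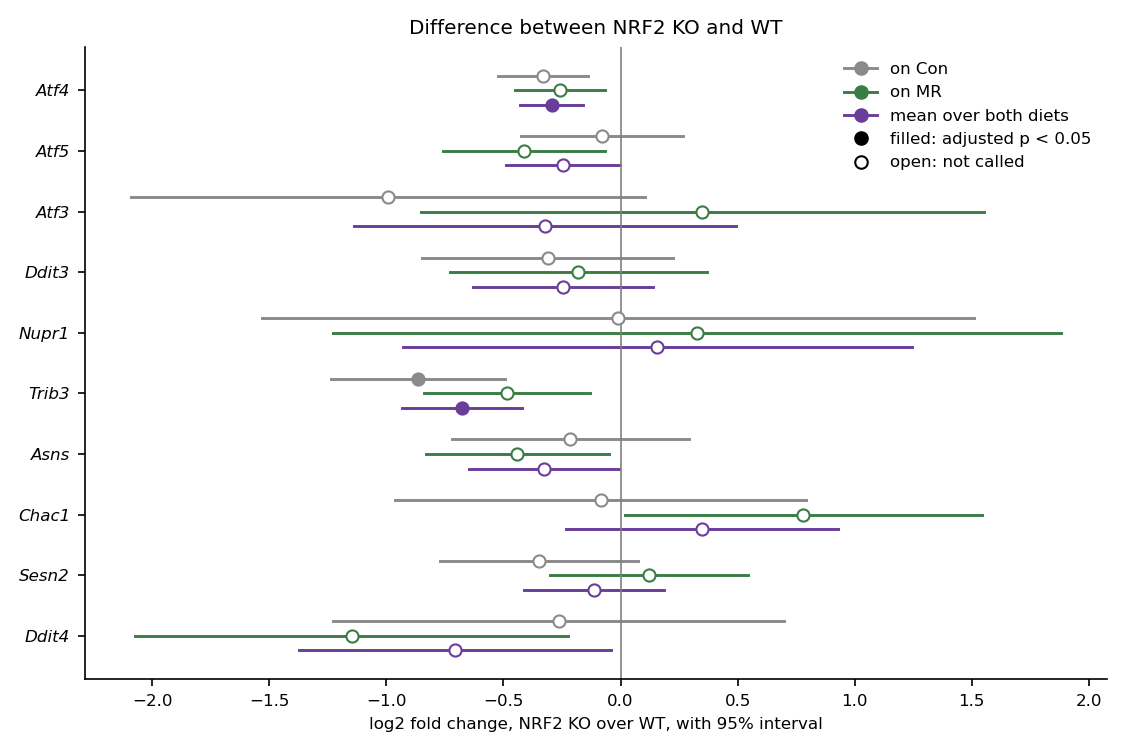
Log2 fold change between NRF2 KO and WT livers for each of the 10 mRNAs on Con (grey), on MR (green) and as the mean over both diets (purple), with 95% intervals; filled points have an adjusted p under 0.05 over all 13336 genes. Trib3 is filled on Con and over both diets and Atf4 over both diets, and no point is filled on MR.

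The mice differed from one another within each group, and some pairs of the 10 genes varied together. In log2 CPM, as deviations from the mean of the group and over 22 mice, 36 of the 45 pairs of genes had a Pearson r above 0, with a median of 0.206, and 3 had an r of at least 0.7. No such count was made for pairs of other genes. These values therefore cannot show that the 10 genes varied together more than other genes. These 3 pairs were Atf4 with Ddit3 (r = 0.846), Atf3 with Ddit3 (r = 0.773) and Atf4 with Atf3 (r = 0.772). Spearman's rho was 0.764, 0.563 and 0.478. Without WT_MR_7609 and KO_CON_7622, the mice farthest from the median for the first-named gene of each pair, r was 0.696, 0.623 and 0.566. The next pairs were Atf3 with Nupr1 (r = 0.662), Sesn2 with Ddit4 (r = 0.637), Atf5 with Ddit4 (r = 0.608) and Chac1 with Sesn2 (r = 0.562). Without the 2 mice farthest from the median for the first-named gene of the pair, r was 0.694, 0.526, 0.57 and 0.39. Mice that were extreme only for the second gene stayed in. The pattern of Asns was closest to Set, then to Psat1, an enzyme of serine synthesis, and to Mmab (r = 0.844, 0.834 and 0.785) among 11997 genes searched. Spearman's rho for Set, Psat1 and Mmab was 0.758, 0.626 and 0.64. The mouse KO_CON_7620, far below its group mean for Asns (-1.412), was kept in these values. The genes most like Atf4 were Hcfc1, Ccm2 and Marchf9 (r = 0.782, 0.78 and 0.772), those most like Trib3 were Hccs, Nudt22 and Arl3 (r = 0.714, 0.712 and 0.708), and those most like Ddit4 were 2310011J03Rik, Gm15834 and Pex3 (r = 0.774, 0.771 and 0.763). The mice in such a correlation share a library preparation and its depth, and the values are a description.

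Some mice lay on one side of their group mean for most of the genes. In the NRF2 KO MR group, KO_MR_7625 and KO_MR_7631 were above the group mean for all 10 genes, by 0.42 and 0.50 on average on the log2 scale, while KO_MR_7628 was above it for none. WT_MR_7609 was above for 7 of the 10 (average 0.43), KO_CON_7622 was above for 7 (average 0.42), and WT_CON_7608 was above for 7 (average 0.40). The library labelled WT_CON_7607 was above the mean of its group for 5 of the 10, with an average of 0.10.

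**Figure D4:**
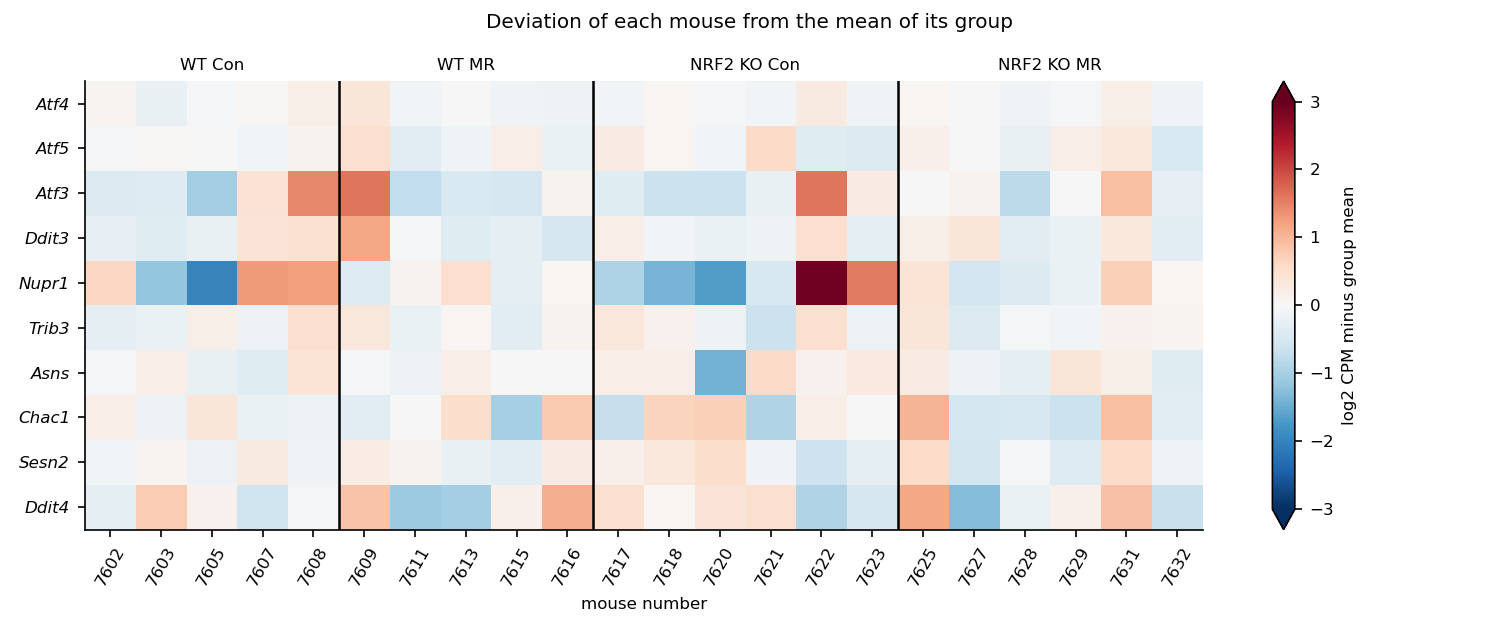
Deviation of each of the 22 mice (columns, by mouse number) from the mean of its group, in log2 CPM, for each of the 10 mRNAs (rows); red is above and blue below the group mean. The columns of KO_MR_7625 and KO_MR_7631 are above the mean in all 10 rows, and the strongest colours are in the Nupr1 and Atf3 rows.

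The 2 mice set aside here were high for most of the 10 genes. WT_CON_7604 lay above all 5 other WT Con mice for 9 genes and inside their range for Chac1. Its levels were 38.0 CPM for Atf3, 82.4 CPM for Ddit3, 88.8 CPM for Trib3 and 882 CPM for Atf5, which are 11.3, 4.76, 5.13 and 1.74 times the mean of the other WT Con mice. For Asns it held 10.4 CPM, above the other WT Con mice and below every MR mouse. WT_MR_7612 lay above all 5 other WT MR mice for 6 genes, with Trib3 at 85.4 CPM (2.74 times their mean), Nupr1 at 37.4 CPM and Asns at 113 CPM, and inside their range for Atf5, Ddit3, Chac1 and Ddit4.

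Other genes of the pathway were followed through lists of textbook members. Of 23 other ATF4 target genes in the table, 17 rose and 2 fell on MR in WT, and 16 rose and none fell in NRF2 KO, with median log2 fold changes of 1.09 and 0.98. Of all tested genes 6.91% were called higher and 6.91% lower in WT, and 6.23% and 6.34% in NRF2 KO. This list was also chosen with earlier results of these data known, so its counts are a description. In WT 16 rose and 1 fell without the library labelled WT_CON_7607. By the naming rule the 3 with the largest change were Slc7a11, the cystine transporter, Phgdh, the first enzyme of serine synthesis, and Aldh1l2, a mitochondrial folate enzyme. Phgdh was between 0.0 and 0.506 CPM in the 5 WT Con mice and between 2.55 and 5.58 CPM in the 5 WT MR mice (edgeR adjusted p = 2.5e-05), and in NRF2 KO it went from at most 0.454 to between 2.71 and 5.07 CPM (edgeR adjusted p = 2.1e-06). Aldh1l2 went from at most 0.380 to between 4.05 and 6.63 CPM in WT (edgeR adjusted p = 3.7e-08) and from at most 0.545 to between 2.51 and 4.09 CPM in NRF2 KO (edgeR adjusted p = 7.6e-07). Slc7a11 was at most 0.152 CPM in WT Con and 2.85 to 16.3 CPM in WT MR (edgeR adjusted p = 2.3e-05), and at most 0.259 CPM in NRF2 KO Con and 0.136 to 4.56 CPM in NRF2 KO MR (edgeR adjusted p = 0.0042). Its WT call was lost with WT_CON_7604 put back (log2 fold change 2.39 in place of 6.79, edgeR adjusted p = 0.086). Its NRF2 KO call was lost with all 24 mice, with WT_CON_7604 and with WT_MR_7612 put back (edgeR adjusted p = 0.26, 0.11 and 0.14). Between the genotypes on MR, 1 of the 23 was called, where 1.93% of all tested genes were. With a list of this size, 1 call is near that share. The gene was Slc7a11, which was lower in NRF2 KO (mean 1.76 CPM) than in WT (mean 8.75 CPM, edgeR adjusted p = 0.0095). This call was lost with WT_CON_7604 put back and in a fit on these groups alone (edgeR adjusted p = 0.27 and 0.075). The exceptions in the list were Gdf15 and Bbc3, which fell in WT by 1.24 and 0.48 (edgeR adjusted p = 0.0085 and 0.033) and were named because they were the 2 that fell. The Bbc3 call was lost in 8 of 31 other fits, among them that without the library labelled WT_CON_7607 (edgeR adjusted p = 0.059).

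**Figure D5:**
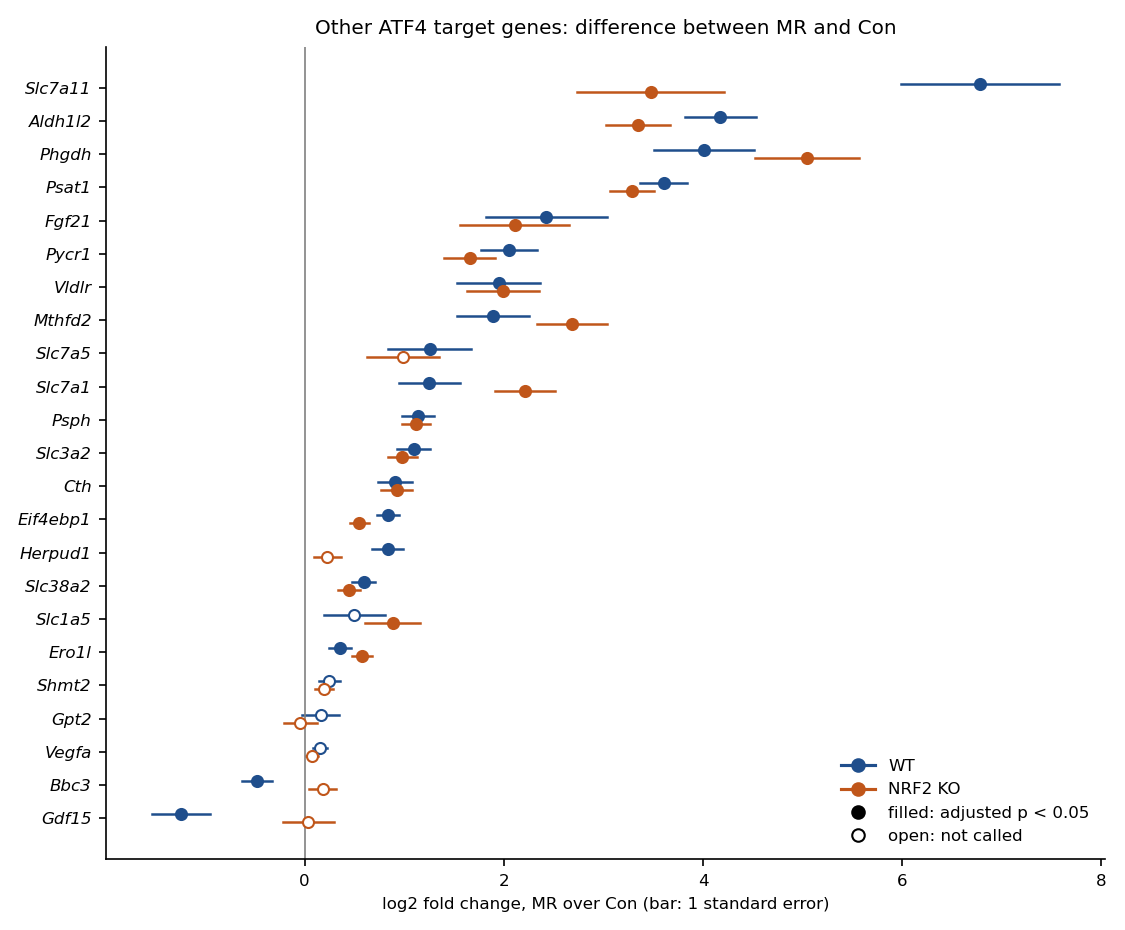
Log2 fold change of MR over Con for 23 other ATF4 target genes in WT (blue) and NRF2 KO (orange), with bars of 1 standard error; filled points have an adjusted p under 0.05. Most points lie to the right of 0 in both genotypes and Gdf15 and Bbc3 to the left in WT; the values of Slc7a11, Phgdh and Aldh1l2 rest on few or no reads in Con and depend on the prior count of the fit.

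Upstream of ATF4, among 9 genes of the eIF2α kinases, their regulators and the eIF2α phosphatase, 1 rose and 1 fell in WT and 2 rose and 1 fell in NRF2 KO. In a list this small 1 call is near the shares of all tested genes, 6.91% higher and 6.91% lower in WT. Eif2ak3, which encodes the ER-resident kinase PERK, was at 7.39 and 7.57 CPM in WT Con and MR (log2 fold change 0.03, edgeR adjusted p = 0.95) and rose from 5.90 to 11.2 CPM in NRF2 KO (0.94, edgeR adjusted p = 0.0027), with an interaction adjusted p of 0.41 (edgeR). Impact, an inhibitor of the amino acid sensing kinase GCN2, rose in both genotypes (0.42 and 0.72, edgeR adjusted p = 0.03 and 0.00032), and Eif2ak2, the double-stranded RNA kinase PKR, fell in both (-0.47 and -0.40, edgeR adjusted p = 0.0093 and 0.017). Eif2ak4, which encodes GCN2, did not pass the test (edgeR adjusted p = 0.27 and 0.84). The Impact call in WT was lost in 5 of 31 other fits (edgeR adjusted p up to 0.093), and that of Eif2ak2 in NRF2 KO with library-size scaling (edgeR adjusted p = 0.14).

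Of 13 bZIP genes, Nfe2l2 among them, whose products can pair with ATF4 or its relatives, 2 rose and 2 fell in WT and 3 rose and 1 fell in NRF2 KO. The shares of all tested genes were 6.91% higher and 6.91% lower in WT, and 6.23% and 6.34% in NRF2 KO. Junb, an AP-1 subunit, was one of the 6 genes of the whole table with a called interaction: it fell on MR in WT, with 44.4 ± 5.94 CPM (SD, n = 5) on Con and 27.5 ± 4.96 CPM (SD, n = 5) on MR, and rose in NRF2 KO, with 28.2 ± 3.92 CPM (SD, n = 6) on Con and 41.1 ± 5.79 CPM (SD, n = 6) on MR. The log2 fold changes were -0.69 and 0.55 (edgeR adjusted p = 0.0012 and 0.0038, interaction adjusted p = 0.002). Fos, its usual partner, was low throughout, with means of 0.881 and 0.338 CPM in WT Con and WT MR (edgeR adjusted p = 0.045), and Cebpd rose in WT (0.59, edgeR adjusted p = 0.046). Neither call was stable: Fos lost it in 14 of 28 other fits and Cebpd in 17 of 31, and without the library labelled WT_CON_7607 the adjusted p was 0.085 and 0.054 (edgeR), which leaves 1 that rose and 1 that fell in WT. Mafg, a small MAF protein, rose in both genotypes (0.59 and 0.56) and Cebpg, a C/EBP partner of ATF4, in NRF2 KO (0.34, edgeR adjusted p = 0.031, lost in 9 of 31 other fits). Mafg and Cebpg fell outside the naming rule and were chosen after their values were seen.

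The unfolded protein response was followed in the same way. Of 17 ER chaperones and ER-associated degradation genes, which report that response, 1 rose and 1 fell in WT and 2 rose and 4 fell in NRF2 KO, with median log2 fold changes of -0.08 and -0.24. All tested genes had shares of 6.91% higher and 6.91% lower in WT, and 6.23% and 6.34% in NRF2 KO. The WT counts were near these shares. Pdia6, a protein disulfide isomerase, fell in both genotypes (-0.42 and -0.79, edgeR adjusted p = 0.025 and 0.00011), Dnajb9 rose in both (0.82 and 0.70, edgeR adjusted p = 0.02 and 0.029), and Sdf2l1 fell in NRF2 KO (-0.92, edgeR adjusted p = 0.037). Of these, the Pdia6 call in WT was lost in 5 of 31 other fits, the Dnajb9 calls in 5 and 6, and the Sdf2l1 call in 11, at adjusted p (edgeR) of up to 0.073, 0.13, 0.074 and 0.083, while the Pdia6 call in NRF2 KO held in all 31. Of 11 paralogs of the 10 genes none rose and 2 fell in WT, and none was called in NRF2 KO. The 2 were Ddit4l, the paralog of Ddit4 (3.34 to 1.25 CPM on average, edgeR adjusted p = 0.0041), and Sesn3, a paralog of Sesn2 (16.3 to 11.1 CPM, edgeR adjusted p = 0.0016).

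Genes that share a regulator other than ATF4 with some of the 10 were also read. The shares of all tested genes beside them were 6.91% higher and 6.91% lower in WT, and 6.23% and 6.34% in NRF2 KO. Of 11 p53 target genes none rose and 5 fell in WT, and 1 rose and 2 fell in NRF2 KO. Cdkn1a, an inhibitor of the cell cycle, fell in WT from 16.6 to 3.92 CPM (edgeR adjusted p = 0.0035), Eda2r from 1.21 to 0.106 CPM (edgeR adjusted p = 0.00098), and Gadd45a rose in NRF2 KO (0.86, edgeR adjusted p = 0.018). The Cdkn1a call was lost with WT_MR_7612 put back (-1.18 in place of -2.06, edgeR adjusted p = 0.13) and the Gadd45a call with all 24 mice (edgeR adjusted p = 0.051). Of 11 glucocorticoid-induced genes, a group to which Ddit4 belongs, 3 rose and 2 fell in WT and 1 rose in NRF2 KO. Lcn2 fell in WT from 6.11 to 1.11 CPM (edgeR adjusted p = 0.012), Cdkn1a is also in this list, and Mt2 rose in NRF2 KO from 13.3 to 39.6 CPM (edgeR adjusted p = 0.013). The Mt2 call was lost with all 24 mice, with WT_CON_7604 and with WT_MR_7612 put back (edgeR adjusted p = 0.18, 0.11 and 0.072). Of 5 targets of CHOP and TRIB3 in cell death 2 rose and 2 fell in WT and 1 rose in NRF2 KO: Ero1l rose in both (0.35 and 0.58, edgeR adjusted p = 0.037 and 0.00069), while Tnfrsf10b, a death receptor, fell in WT from 1.26 to 0.224 CPM (edgeR adjusted p = 0.019), as did Bbc3. Without the library labelled WT_CON_7607 the WT calls of Ero1l and Tnfrsf10b were lost (edgeR adjusted p = 0.067 and 0.051), as was that of Bbc3, and the WT counts of these lists were 4 that fell for the p53 targets, 1 that rose and 2 that fell for the glucocorticoid-induced genes, and 1 that rose and none that fell for the targets in cell death.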

How the data were processed

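Liver RNA of 24 mice was sequenced by the authors with a 3′ tag protocol (QuantSeq). Per the labels, DESeq2 (version 1.18.1) in R (version 3.4.3) and the build GRCm38/mm10 were used. The tables used were: raw read counts per gene, deposited as whole numbers, and a signal, the same counts divided by 1 size factor per library, also deposited. Within a library the ratio of counts to signal deviated from its median by at most 5.1e-15 in relative terms. Whether these factors equal those that DESeq2 gives was not checked. Names of 13016 genes came from the table and of 2103 more from GENCODE. For mapping and count tables the paper names the FWD version of Lexogen's QuantSeq pipeline, and it also names CLC Genomics Workbench. The read length, the strand setting and the tool that counted reads within these could not be settled from the sources used here. No column of per-sample values was left unused.

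Groups followed the labels, and each library is 1 mouse; the numbers are those of the mice, so replicates are not paired. The 10 genes and all lists were chosen with earlier results of these data known. Counts of 22 mice were fitted in edgeR (4.0.16, R 4.3.3) with 1 mean per group, TMM scaling, filterByExpr and the robust quasi-likelihood test, with Benjamini-Hochberg adjustment over 13336 genes; a gene was called at an adjusted p under 0.05. The fit was tested on simulated counts. Intervals of 95% use the t distribution of the fit. CPM carry counting error as well as the spread between mice, and libraries of 6197291 to 22068338 counts set the precision of low genes. Alternatives were DESeq2 size factors, library size alone, no filter, DESeq2's test (1.42.0), limma (3.58.1) on log2(signal + 1), the groups compared alone, all 24 mice, and each of 22 mice left out; 23 mice, with either of the mice set aside, was added after the data were seen. From each list the named genes are up to 3 with the largest called change on MR, and genes of like pattern are the 3 with the highest r. Python 3 with pandas and matplotlib drew the figures.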

Additional observations from a re-analysis of the deposited data

Results flagged for a closer look

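In 40 sets of values (10 genes in 4 groups) the highest or lowest mouse was compared with the nearest other mouse by Dixon's criterion at the 95% level, which chance alone exceeds in about 1 set in 20. It was exceeded in 6 sets, and 3 of the 6 came from 1 mouse. That rate holds for independent sets of normally distributed values. The values here were CPM without a log, and genes of 1 mouse are not independent. The 6 sets therefore do not show an excess over chance. This was WT_MR_7609, with 318.1 CPM for Atf4 (nearest mouse 244.1 CPM), 3.652 CPM for Atf3 (nearest 1.209 CPM) and 28.55 CPM for Ddit3 (nearest 12.41 CPM). KO_CON_7622 stood apart in 2 sets, with 4.813 CPM for Atf3 (nearest 1.805 CPM) and 71.29 CPM for Nupr1 (nearest 27.81 CPM). The last was KO_CON_7620, which was low for Asns with 1.38 CPM (nearest 4.268 CPM).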

How the results depend on the processing

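The counts of genes called were the same in every other fit for NRF2 KO on MR (0), for the interaction (0) and for NRF2 KO over both diets (2), and for MR in NRF2 KO (4) in every one but that with all 24 mice (3). For MR in WT the 4 calls became 2 with all 24 mice and between 2 (without the library labelled WT_CON_7607) and 5 when each mouse was left out in turn. For NRF2 KO on Con the 1 call became 2 with DESeq2's test, 2 with all 24 mice, 2 with WT_CON_7604 put back, 0 with WT_MR_7612 put back and 0 in a fit on the groups compared, and was 1 to 2 when each mouse was left out (2, with Atf4, without WT_CON_7603, WT_MR_7609 or KO_CON_7622). The Chac1 call in WT was lost without WT_CON_7602, WT_CON_7603, WT_CON_7605, WT_CON_7607, WT_CON_7608, WT_MR_7611, WT_MR_7613, WT_MR_7616 or KO_CON_7623, at log2 fold changes of 1.08 to 1.4 and adjusted p from 0.05 to 0.11, and with limma (1.15, adjusted p = 0.056). No paired analysis was possible because the labels' replicate numbers are mouse numbers and no number is shared between groups.

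The direction of some values that were not called turned. With all 24 mice and with WT_MR_7612 put back, NRF2 KO on MR gave -0.18 and -0.17 for Atf3, -0.01 and -0.01 for Sesn2 and -0.03 and -0.03 for Nupr1. With WT_MR_7612 put back, Sesn2 was 0.04 and Mt2 0.82 for MR in WT, the Nupr1 interaction was -0.01 and Nupr1 over both diets was -0.02 (-0.14 with all 24 mice, -0.13 with limma). With WT_CON_7604 put back the Asns interaction was 0.03, and for MR in WT Eif2ak3 was -0.13 (-0.07 with all 24 mice) and Gadd45a -0.19 (-0.10 with all 24 mice). Library-size scaling, which moves the median of all genes to 0.087 for MR in WT and 0.152 for MR in NRF2 KO, gave 0.02 for Ddit3, 0.06 for Nupr1, 0.03 for Fos and 0.09 for Cebpd on MR in NRF2 KO and 0.0 for Sesn2 on MR in WT. Limma gave -0.02 for Ddit4 and 0.89 for Nupr1 on MR in NRF2 KO and 0.07 for Nupr1 on MR in WT, and DESeq2's test 0.03 for Nupr1 for NRF2 KO on Con. When each mouse was left out, values ranged from -0.16 to 0.65 (Atf3), -0.14 to 0.3 (Ddit4), -0.29 to 1.05 (Nupr1), -0.33 to 0.01 (Fos), -0.16 to 0.01 (Cebpd) and -0.11 to 0.13 (Ddit4l) for MR in NRF2 KO, from -0.08 to 0.1 (Eif2ak3) and -0.08 to 0.28 (Gadd45a) for MR in WT, from -0.21 to 0.0 (Atf5), -0.27 to 0.06 (Chac1) and -1.11 to 0.27 (Nupr1) for NRF2 KO on Con, from -0.31 to 0.26 (Ddit3) and -0.01 to 0.21 (Sesn2) for NRF2 KO on MR, from -0.59 to 0.08 (Atf3) and -0.39 to 0.29 (Nupr1) over both diets, and from -0.0 to 0.58 for the Ddit3 interaction. The cause of these changes was not tested. Atf3 rested on 5 to 182 counts in a library, so its levels carry counting error beside the spread between mice, and the 2 were not separated.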
